A study of Zea mays with 18 samples.

Results

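A set of 155 maize genes was described whose transcript level in shoots was lowest 24 hours after iron had been given back to iron-deprived plants. The genes were chosen from 40690 by their measured values in shoots. Their mean level, in CPM (counts scaled to the size of the library, with sizes adjusted by the trimmed mean of M-values, TMM) plus 0.1, was at least 1.5 times higher in both iron-sufficient and iron-deficient shoots than in resupplied shoots. All 3 resupplied shoot libraries lay below all 6 other shoot libraries, the sufficient mean plus 0.1 was at least 5 CPM, the deficient mean was less than 1.5 times the sufficient one, and the mean over 9 shoot libraries was above that over 9 root libraries. Genes with every shoot library at 100 CPM or more and a root median of at most 0.5 CPM were removed, which took away 2 genes. The levels in shoots are therefore a description of how the set was chosen and carry no test, whereas differences among root libraries played no part in the choice.

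All plants were wild-type W22, a maize inbred line, and no other genotype was used. Plants spent 12 days in hydroponic culture and a further 3 days either with iron (+Fe, called sufficient here) or without it (−Fe, called deficient). Some of the −Fe plants were then moved to solution with 0.1 mM FeSO4-EDTA, a soluble iron salt held by a chelator (called resupplied), while the remaining +Fe and −Fe plants were given fresh solution of their own kind. Roots and shoots were harvested apart 24 hours afterwards and sequenced as 18 RNA-seq libraries, 3 for each of 6 combinations of organ and condition. The resupplied plants thus shared their period without iron with the deficient plants, and whether the +Fe solution held the same salt and amount is not stated. The replicates are called biological, and the number of plants behind each is not stated. The p-values below set differences between conditions against the spread between these libraries.

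Iron is needed in leaves for photosynthetic electron transport, for chlorophyll synthesis and for iron-sulphur and haem proteins, and free iron is harmful, so that plants adjust both its uptake and its storage. Grasses such as maize take up iron by releasing phytosiderophores, small chelators that bind iron in the soil and are taken back into the root with it. Iron deficiency raises the genes of this uptake system in roots, and renewed iron is known to lower them and to raise iron storage proteins such as ferritin. Which of these functions the 155 genes have could not be looked up, because the deposited tables give only identifiers of the W22 annotation and none of them occurs in the table of maize gene names that was at hand. The members are therefore named by identifier alone, no role is given, and their sequences are not printed.

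Root libraries held 63058129 to 78431980 estimated counts and shoot libraries 69390438 to 84318039, and no library was identical to another. A group of 95 genes with at least 100 CPM in every shoot library and a root median of at most 0.5 CPM reached 0.0314% to 0.260% of its shoot level in root libraries, with the highest value in sufficient root library 3. These genes were picked for that contrast, and with no gene names the organ labels could not be checked against known markers. In shoots the 100 most abundant genes took 22.8% to 24.1% of the counts in sufficient libraries, 16.9% to 17.6% in deficient ones and 18.4% to 19.5% in resupplied ones. The TMM factors had the reverse order, at 0.816 to 0.849 in sufficient, 0.934 to 0.956 in deficient and 0.886 to 0.912 in resupplied shoots, so that shoot levels set between conditions depend on the scaling. CPM values are not divided by gene length, so a higher CPM in 1 gene than in another is not a higher number of transcripts, and bounds on CPM below only sort genes by how many counts they have.

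In shoots the members' levels were close in sufficient and deficient plants and lower in resupplied ones. Their median level was 26.9 CPM in sufficient shoots (range 5.05 to 649), 28.8 CPM in deficient shoots (4.26 to 698) and 15.5 CPM in resupplied shoots (2.02 to 420). Summed over the 155 genes, the level was 9382 ± 821 CPM in sufficient, 9360 ± 336 CPM in deficient and 5277 ± 409 CPM in resupplied shoots (SD, n = 3). The 3 resupplied libraries, at 4810 to 5574 CPM, lay below the other 6, as the choice required gene by gene. As a share of all counts, before any TMM scaling, the same sums were 0.784%, 0.884% and 0.474%. In these whole-organ samples fewer cells of a type and less RNA per cell cannot be told apart.

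**Figure D1:**
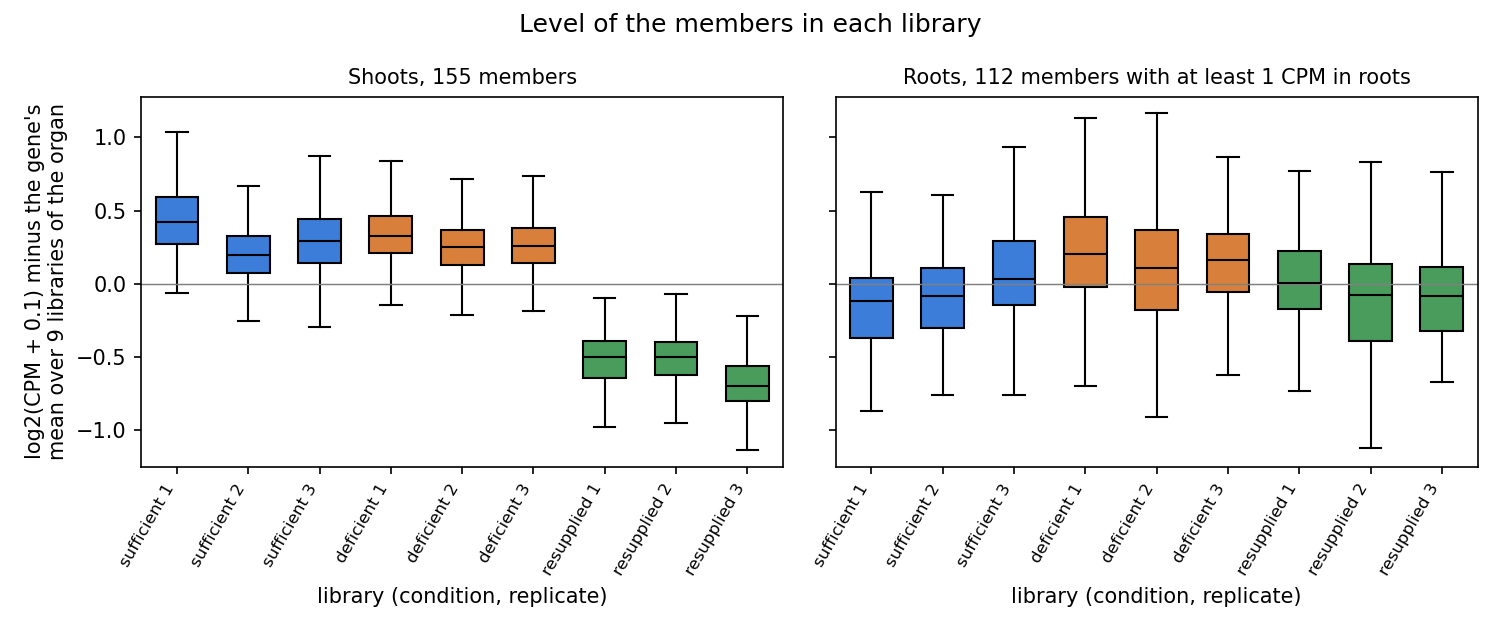
Level of the members in each library, as log2(CPM + 0.1) minus the gene's own mean over the 9 libraries of the organ, with shoots on the left (155 members) and roots on the right (112 members with a mean of at least 1 CPM there). Boxes span the quartiles over genes with the median as a line, whiskers reach 1.5 times the box height and points beyond are not drawn; the resupplied shoot medians are -0.50, -0.50 and -0.70, and the deficient root medians, 0.11 to 0.20, lie above those of the other root libraries.

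The ratio of sufficient to resupplied shoots had a median of 1.82 and ran from 1.5 to 3.73, and the ratio of deficient to resupplied shoots had a median of 1.74 and ran from 1.5 to 3.12. A level at least 2 times higher than in resupplied shoots was found for 44 members in sufficient shoots, for 40 in deficient shoots and for 19 in both. The ratio of deficient to sufficient shoots was between 0.8 and 1.25 for 120 members, below 0.8 for 19 and at least 1.25 for 16. In 121 members the libraries of these 2 conditions overlapped. In 15 members every deficient library lay above every sufficient one (11.5% of 22830 genes with at least 1 CPM in shoots) and in 19 every one lay below (14.5%). The choice bounded this ratio from above, so these counts describe the set and are not read further.

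**Figure D2:**
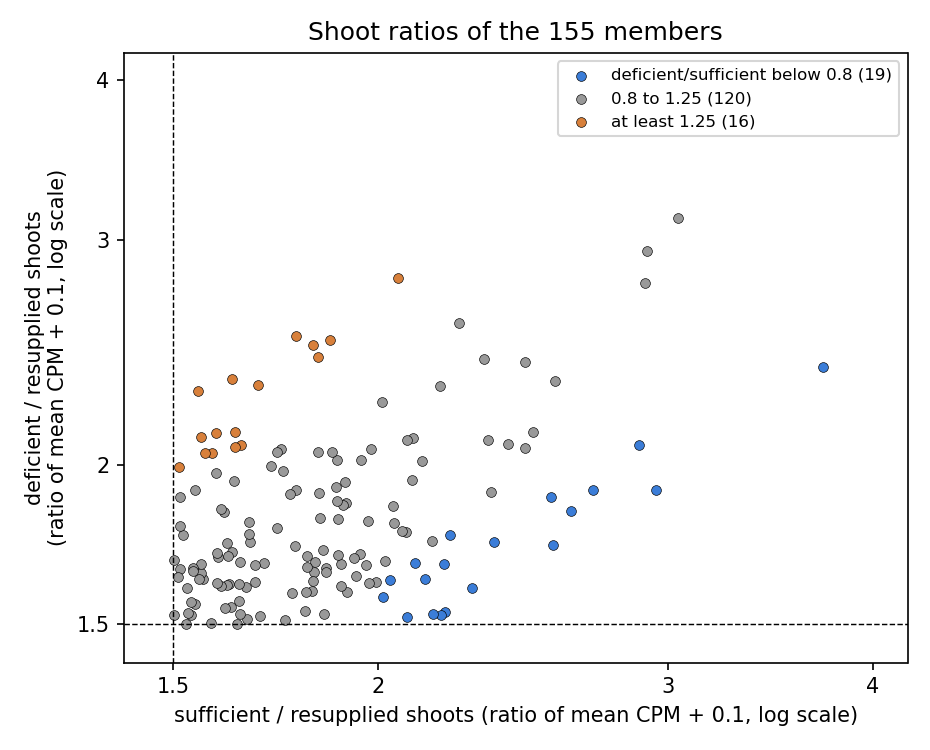
Ratio of sufficient to resupplied shoots (x axis) and of deficient to resupplied shoots (y axis) for each of the 155 members, from means of 3 libraries plus 0.1 CPM, both axes on a log scale; dashed lines mark the threshold of 1.5. Colours split the members by their deficient to sufficient ratio: the 19 below 0.8 lie to the lower right, the 16 of at least 1.25 to the upper left, and most of the 155 lie within a ratio of 2 on both axes.

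Zm00004b012790 had the largest ratio of sufficient to resupplied shoots, 3.73. Its levels were 19.8, 19.3 and 18.8 CPM in sufficient, 9.60, 14.5 and 12.8 CPM in deficient and 5.03, 5.74 and 4.52 CPM in resupplied shoots. The 3 conditions did not overlap, with the deficient libraries between the other ones, and its deficient to sufficient ratio of 0.64 was also the lowest of the set. Zm00004b039986 had the next lowest such ratio, 0.647, with 16.3, 10.4 and 13.7 CPM, then 7.21, 6.80 and 12.0 CPM, then 5.31, 4.84 and 3.33 CPM in sufficient, deficient and resupplied shoots. Here deficient library 3 lay within the range of the sufficient ones.

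Zm00004b006166 had the largest ratio to resupplied shoots after deficiency, 3.12, and a ratio of 3.05 for sufficient shoots. Its levels were 11.7, 7.92 and 9.70 CPM in sufficient, 10.6, 11.1 and 8.39 CPM in deficient and 2.70, 2.98 and 3.76 CPM in resupplied shoots. The sufficient and deficient libraries overlapped fully, and in roots the gene did not pass 0.216 CPM in any library. Zm00004b024338 followed with 11.2, 7.82 and 10.6 CPM in sufficient, 11.2, 10.2 and 8.50 CPM in deficient and 4.17, 3.46 and 2.33 CPM in resupplied shoots, or ratios of 2.91 and 2.94. Zm00004b023708 had 30.1, 20.8 and 16.3 CPM in sufficient, 25.9, 33.7 and 31.9 CPM in deficient and 11.8, 9.67 and 11.1 CPM in resupplied shoots. Its sufficient libraries were spread more widely than its deficient ones, and the ratios were 2.06 and 2.80.

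At the other end of the deficient to sufficient ratio stood Zm00004b039278 and Zm00004b010040. Zm00004b039278 had 96.4, 84.8 and 92.0 CPM in sufficient, 131, 132 and 139 CPM in deficient and 66.4, 56.3 and 53.0 CPM in resupplied shoots. Deficient shoots were highest and resupplied shoots lowest without overlap, with a deficient to sufficient ratio of 1.47, just under the limit of the choice. Zm00004b010040 had 140, 153 and 158 CPM in sufficient, 237, 192 and 216 CPM in deficient and 105, 94.1 and 77.0 CPM in resupplied shoots, the same order with a ratio of 1.43.

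The members with the highest CPM in sufficient shoots had smaller ratios. Zm00004b028585 had 792, 602 and 552 CPM in sufficient, 710, 698 and 684 CPM in deficient and 438, 424 and 399 CPM in resupplied shoots, with ratios of 1.54 and 1.66. Zm00004b015867 had 632, 575 and 572 CPM in sufficient, 541, 563 and 494 CPM in deficient and 369, 348 and 332 CPM in resupplied shoots, with ratios of 1.69 and 1.52. In both, the resupplied libraries lay below the others. The sufficient and deficient libraries overlapped in Zm00004b028585, and the deficient ones lay just below the sufficient ones in Zm00004b015867.

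Fitted over all 26318 genes tested in shoots with edgeR's quasi-likelihood test, 149 of the 155 members were called lower in resupplied than in sufficient shoots (5.47% of all genes tested were called in that direction) and 142 lower than in deficient shoots (3.72%). Against sufficient shoots, 3 members were called higher in deficient ones (1.26%) and 8 lower (4.44%). The members' median log2 fold changes were -0.87, -0.80 and -0.02 in these 3 comparisons. All of these contrasts were used to choose the set, and the counts are given only as its description. With libraries scaled by total counts the median of deficient against sufficient shoots became 0.16, while that of all genes tested moved from 0.01 to 0.18, so relative to all genes the members stayed close to 0. The balance of calls turned with that scaling: 22 members were called higher in deficient shoots and 1 lower, against 12.1% and 2.39% of all genes.

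Resupplied shoot library 3 was the lowest of the 3 for 105 members, library 2 for 31 and library 1 for 19. Without library 3 the same rule chose 137 genes, 116 of them among the 155, and without library 1 or 2 it chose 192 and 189 genes, with 145 and 146 of the 155. The library left out in each case had no part in that choice, while the other libraries were shared. Left-out library 1 lay below all 6 sufficient and deficient libraries in 91.1% of the genes chosen without it, library 2 in 92.6% and library 3 in 94.2%. Here and below, genes said to meet the level and organ criteria exclude those removed for high shoot levels with near absence from roots. Among the 9999 to 10019 such genes, the left-out library lay below all 6 in 18.6%, 18.4% and 24.9%. These shares cannot be set against each other as a test, since the sufficient and deficient libraries that chose the genes are also those the left-out library is compared with.

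The thresholds had many genes close to them. The ratio of sufficient to resupplied shoots was 1.5013 for the member just inside and 1.4997 for the gene just outside, and 52 genes met every criterion but this one. For the ratio of deficient to resupplied shoots these values were 1.502 and 1.493, with 122 genes failing only there, and for the deficient to sufficient ratio they were 1.47 and 1.51, with 7 genes. Separation of the libraries was met most narrowly by Zm00004b022996, whose lowest sufficient or deficient library was 1.00 times its highest resupplied one, and 11 genes failed only on it. The lowest sufficient mean plus 0.1 CPM was 5.15 inside and 4.66 outside, with 49 genes failing only there, and 62 genes failed only because their root mean was above their shoot mean. With a ratio of 2 in place of 1.5, 19 members remained. The opposite shape, highest after resupply under mirrored criteria, was met by 37 genes.

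Without its own lowest resupplied shoot library, at the same scaling and as a check chosen after seeing the data, 103 members kept both ratios at 1.5 or more and 52 did not. In 2 members that library was nearly empty, and these were picked out after their values were seen. Zm00004b023380 had 29.0, 25.2 and 29.7 CPM in sufficient, 27.9, 28.6 and 29.7 CPM in deficient and 24.8, 0 and 23.4 CPM in resupplied shoots. Zm00004b040285 had 24.7, 18.3 and 22.8 CPM in sufficient, 24.2, 17.2 and 20.9 CPM in deficient and 0.264, 15.3 and 15.2 CPM in resupplied shoots. In both, the other resupplied libraries lay just under the remaining shoots, and without the nearly empty library the ratios of sufficient to resupplied shoots were 1.16 and 1.43, so their place in the set rests on that library.

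In roots the members covered a wide range, from 0 to 164 CPM over the 9 libraries with a median of 4.40 CPM, against 12.4 CPM for the 10029 genes that met the level and organ criteria. A root mean under 0.1 CPM was found for 15 members, 5 of which had no count in any root library, from 0.1 to 1 CPM for 28, from 1 to 10 CPM for 66 and of at least 10 CPM for 46. Summed over the 155 genes, the level was 1838 ± 81.5 CPM in sufficient, 2332 ± 49.9 CPM in deficient and 1827 ± 47.4 CPM in resupplied roots (SD, n = 3). The deficient root libraries, at 2298 to 2389 CPM, lay above the sufficient ones, at 1762 to 1924 CPM, and above the resupplied ones, at 1777 to 1871 CPM, which overlapped with each other. In roots the deficient libraries thus had the highest sums, whereas in shoots the sums of sufficient and deficient libraries overlapped. A sum gives most weight to members with large CPM differences. Zm00004b019299 had a mean of 83.9 CPM in sufficient and 167 CPM in deficient roots, and Zm00004b033518 had 5.75 and 89.6 CPM. The median log2 fold change over the 139 members tested was only 0.10. Signal of the 95 shoot-restricted genes, as a share of its shoot level, was 0.0458%, 0.0594% and 0.260% in sufficient, 0.0478%, 0.0630% and 0.0868% in deficient and 0.172%, 0.0315% and 0.0314% in resupplied root libraries. Sufficient library 3 and resupplied library 1 were highest, and the deficient libraries overlapped with or lay above the rest. Its part in the members' root values was not tested.

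The comparison of deficient with sufficient roots concerns libraries whose differences the choice did not use, although it used the mean level in roots. Of the 155 members, 139 passed the filter on low counts in roots and 16 did not. In deficient roots 13 of the 139 rose, or 9.35%, and 0 fell, against 2.08% and 0.801% of all 26577 genes tested (edgeR's quasi-likelihood test, Benjamini-Hochberg adjusted p under 0.05). Among the 9785 tested genes that met the level and organ criteria, 0.746% rose and 0.899% fell. At an unadjusted p under 0.05, 29 members were higher and 8 lower, or 20.9% and 5.76%, against 7.78% and 7.66% of all genes tested. The members' median log2 fold change was 0.10, against -0.01 for all genes tested and -0.08 for those of the same level and organ. With no low-count filter 150 members were tested and again 13 rose and 0 fell.

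Zm00004b033518 had the largest rise in deficient roots. It stood at 5.66, 5.96 and 5.63 CPM in sufficient, 100, 83.4 and 85.1 CPM in deficient and 9.18, 8.89 and 8.24 CPM in resupplied roots. No library of any condition overlapped with another condition, and the log2 fold change of deficient against sufficient roots was 3.94 ± 0.11 (SE, edgeR adjusted p = 2.21e-08). In shoots the same gene was abundant under both conditions, with 417, 354 and 481 CPM in sufficient and 434, 377 and 512 CPM in deficient plants, and had 310, 275 and 165 CPM after resupply. Its shoot libraries of sufficient and deficient plants overlapped, with a ratio of 1.06. Resupplied shoot library 3 was far below the other resupplied ones. Without it the ratio of sufficient to resupplied shoots was 1.43, under the 1.5 of the choice, and that of deficient to resupplied shoots was 1.51. The gene was thus among the 52 members that did not keep both ratios.

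Zm00004b024338 was next, with 1.09, 0.436 and 0.993 CPM in sufficient, 9.002, 3.98 and 7.41 CPM in deficient and 4.62, 9.99 and 5.68 CPM in resupplied roots. The sufficient libraries lay below the other 6, which overlapped, and the log2 fold change under deficiency was 2.99 ± 0.43 (edgeR adjusted p = 0.00299). The other risers had smaller changes, with log2 fold changes from 0.44 for Zm00004b018003 to 1.39 for Zm00004b014357. Their mean levels in deficient roots ran from 7.46 CPM for Zm00004b029724 to 167 CPM for Zm00004b019299. In shoots the deficient to sufficient ratio of the 13 risers ran from 0.741 to 1.37 with a median of 1.05, so a rise in deficient roots went with higher, equal or lower levels in deficient shoots.

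Single libraries moved the number of risers. Without sufficient root library 1, 8 members rose, and without deficient root library 1, 7 rose, all of them among the 13, with 0 lower in both cases. In these fits 1.23% and 1.29% of all genes tested rose, against 2.08% with all libraries, and 0.371% and 0.275% fell. Across the other 7 omissions 9 to 13 members rose, against 1.28% to 2.06% of all genes. The only member called lower appeared without deficient library 3, where 1.84% of all genes were lower. DESeq2, a second count test, called 20 members higher and 0 lower, against 3.61% and 2.22% of all genes it tested.

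**Figure D3:**
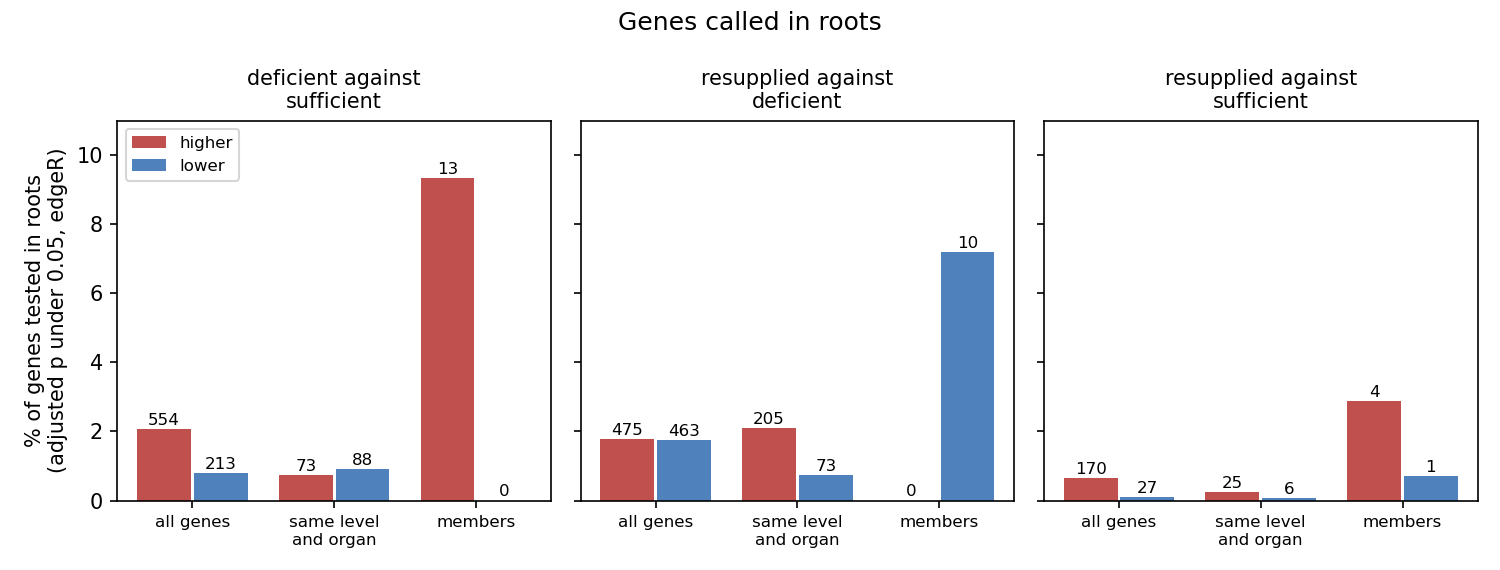
Percentage of genes called higher (red) and lower (blue) in roots for the 3 pairs of conditions (edgeR, adjusted p under 0.05), over all 26577 genes tested, the 9785 tested genes of the same level and organ, and the 139 members tested; numbers on the bars are genes. Among members 13 were higher and 0 lower in deficient roots, and 0 higher and 10 lower after resupply.

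Most of the risers belonged to the members with a higher mean over the 9 root libraries, by which the classes here are set. That mean includes the deficient libraries, so a rise can itself lift a gene into a higher class. Zm00004b033518, for example, had a mean of 34.7 CPM but 5.75 CPM in sufficient roots. The genes set beside the members were classed in the same way. Among the 46 members with at least 10 CPM in roots, 10 rose under deficiency, or 21.7%, against 2.83% of all genes at that level and 0.928% of those of the same level and organ. Among the 66 with 1 to 10 CPM 3 rose, or 4.55%. In that range 1.48% of all genes rose and 0.563% of those of the same level and organ. Among the 27 tested below 1 CPM, where counts are low, 0 rose, against 0.424% and 0%. Looking at separation of the libraries in place of the test, all 3 deficient root libraries lay above all 3 sufficient ones in 28 of 112 members with at least 1 CPM in roots, or 25%, against 12.2% of all such genes and 6.98% of those of the same level and organ. The reverse was found in 0 members, against 8.95% and 11.9%. In 21 members, or 18.8%, the deficient libraries lay above all 6 others, against 6.35% and 3.3%.

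The comparison of resupplied with deficient roots shows what followed renewed iron in roots. Of the 139 members tested 10 fell, or 7.19%, and 0 rose, against 1.74% and 1.79% of all genes tested. Among genes of the same level and organ 0.746% fell and 2.1% rose. At an unadjusted p under 0.05, 31 members were lower and 7 higher, or 22.3% and 5.04%, against 8.47% and 10.1% of all genes tested. The members' median log2 fold change was -0.17 against -0.00 for all genes tested. This comparison has the deficient libraries in common with the preceding one, so the 2 sets of values are not independent and are given side by side.

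Zm00004b033518 again had the largest change, with a log2 fold change of -3.32 ± 0.11 (SE, edgeR adjusted p = 9.91e-08) from the root levels given above. Zm00004b029721 had 3.23, 2.93 and 5.40 CPM in sufficient, 8.36, 8.36 and 9.75 CPM in deficient and 2.20, 1.84 and 4.26 CPM in resupplied roots. Its deficient libraries lay above all others, while the sufficient and resupplied ones overlapped. The log2 fold change after resupply was -1.64 ± 0.32 (edgeR adjusted p = 0.0192), and that under deficiency was 1.17 ± 0.32 (edgeR adjusted p = 0.0814), which did not pass. Its call after resupply was lost without deficient library 1 or 2 or resupplied library 1 or 2, with edgeR adjusted p between 0.0567 and 0.0698 there.

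Besides Zm00004b033518, Zm00004b001672, Zm00004b019299, Zm00004b035134 and Zm00004b014357 were called in both of these comparisons, and these 4 were picked out after their values were seen. Zm00004b001672 had 42.7, 42.1 and 49.1 CPM in sufficient, 98.5, 110 and 88.8 CPM in deficient and 27.2, 34.5 and 32.4 CPM in resupplied roots. The 3 conditions were apart, with resupplied roots lowest as in shoots, and the log2 fold changes were 1.12 ± 0.12 under deficiency (edgeR adjusted p = 0.000271) and -1.63 ± 0.12 after resupply (edgeR adjusted p = 4.99e-05). In shoots this gene had 67.1, 67.7 and 69.8 CPM, then 94.6, 92.0 and 93.3 CPM, then 42.7, 41.8 and 36.5 CPM in sufficient, deficient and resupplied plants. Both organs thus had the order deficient, sufficient, resupplied without overlap.

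Zm00004b019299 had 85.3, 84.3 and 82.0 CPM in sufficient, 172, 165 and 163 CPM in deficient and 75.3, 101 and 90.2 CPM in resupplied roots. Zm00004b035134 had 30.7, 27.4 and 27.8 CPM, then 70.2, 60.4 and 48.8 CPM, then 26.3, 30.1 and 27.9 CPM in the same order. Zm00004b014357 had 3.58, 5.33 and 8.35 CPM, then 18.1, 14.4 and 13.6 CPM, then 7.40, 6.86 and 5.69 CPM. In these 3 genes the deficient root libraries were highest and the resupplied ones overlapped with the sufficient ones, whereas in shoots the resupplied libraries were below both other conditions.

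**Figure D4:**
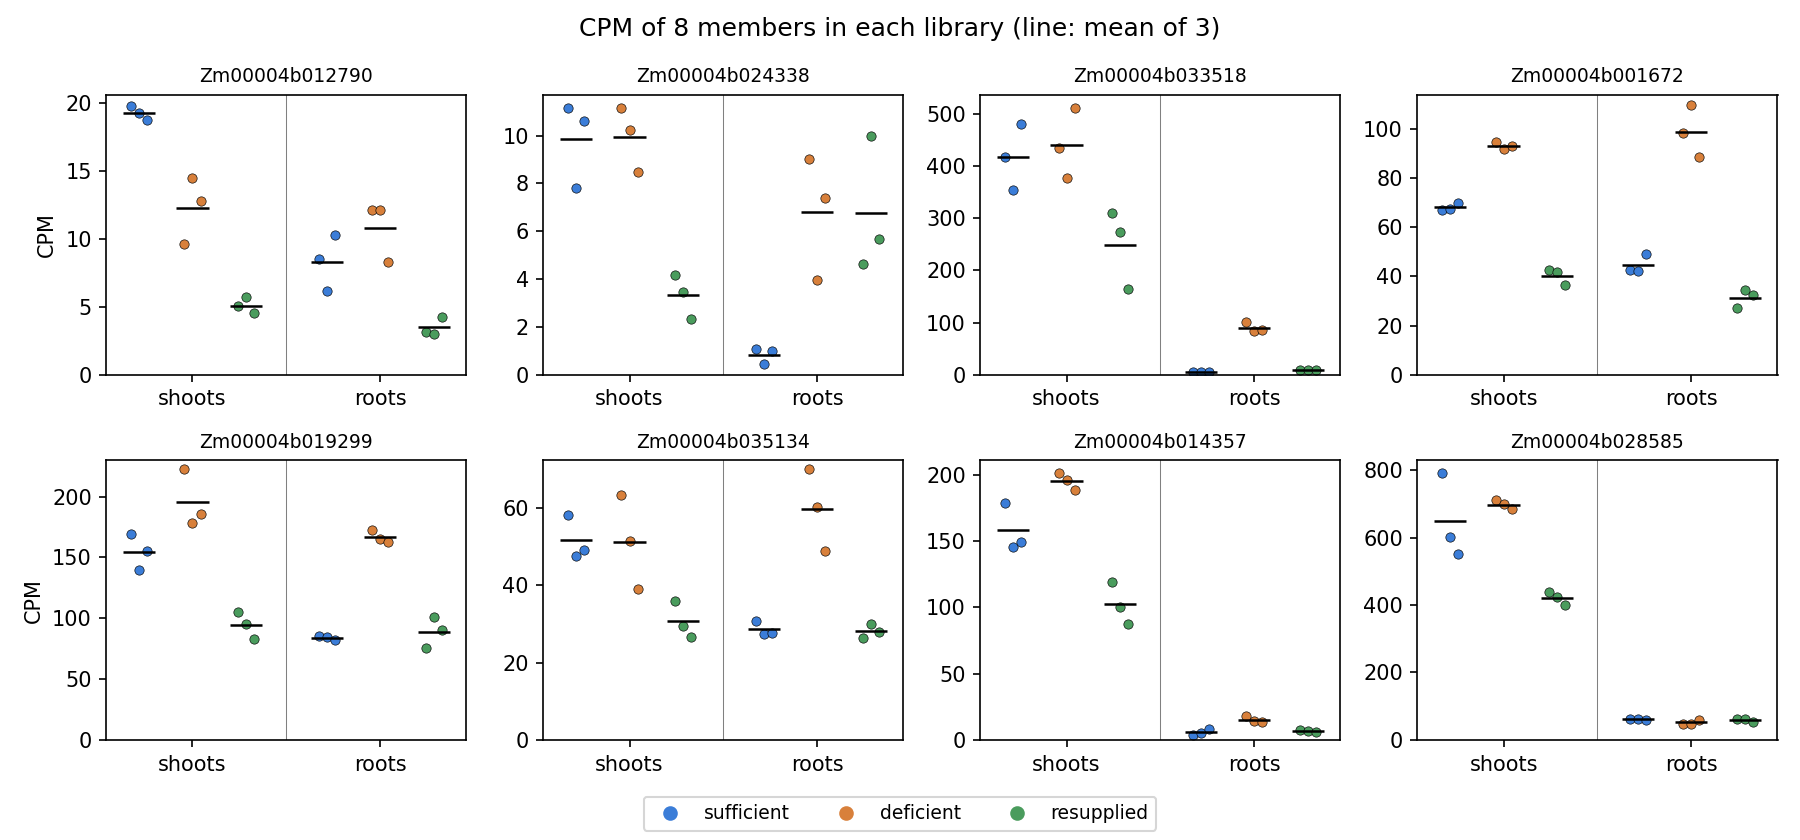
CPM of 8 members in every library, with shoots on the left and roots on the right of each panel, points for libraries, black lines for means of 3 and colours for conditions; each panel has its own linear axis from 0. Zm00004b033518 is at 83.4 to 100 CPM in deficient roots and below 10 CPM in the other root libraries, while its shoot levels of sufficient and deficient plants overlap.

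The remaining members that fell after resupply were Zm00004b012790, Zm00004b001130, Zm00004b027919 and Zm00004b001902. Zm00004b001130 had 56.7, 79.6 and 70.5 CPM in sufficient, 69.1, 102 and 94.2 CPM in deficient and 39.4, 36.0 and 45.1 CPM in resupplied roots. Its resupplied root libraries lay below the other 6, as they did in shoots, and the log2 fold change against deficient roots was -1.11 ± 0.16 (edgeR adjusted p = 0.00403). For Zm00004b027919 and Zm00004b001902 the corresponding log2 fold changes were -1.50 ± 0.35 and -0.83 ± 0.18 (edgeR adjusted p = 0.0423 and 0.0282).

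The number of members that fell depended on single libraries. It was 6, with 0 higher, without deficient root library 1, without deficient root library 2 and without resupplied root library 2. In these fits 0.925%, 0.857% and 0.96% of all genes fell, against 1.74% with all libraries, and 0.587%, 0.538% and 0.734% rose. The number of members was 14, with 2 higher, without deficient root library 3, against 1.91% and 3.34% of all genes. DESeq2 called 19 members lower and 1 higher, against 3.86% and 4.47% of all genes it tested. Among the 46 members with at least 10 CPM in roots 6 fell, or 13%, against 2.37% of all genes at that level and 0.998% of those of the same level and organ. This class too is set by a root mean that includes the deficient libraries. By separation, all 3 resupplied root libraries lay below all 3 deficient ones in 33 of 112 members, or 29.5%, against 13.9% of all genes and 9.25% of those of the same level and organ, and above them in 5, or 4.46%, against 10.8% and 13.5%.

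The shape that defined the set in shoots was also counted in roots. In 10 of the 112 members with at least 1 CPM in roots, or 8.93%, all 3 resupplied root libraries lay below the other 6, against 2.91% of all such genes and 2.41% of those of the same level and organ. Of these 10, 3 were called lower than in deficient roots, namely Zm00004b012790, Zm00004b001130 and Zm00004b001672. Without resupplied root library 1 the count was 19. Fewer libraries then had to be lower, which eases the criterion, and the share over all genes was not counted for it.

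Resupplied and sufficient roots differed in few members. Of 139 tested, 4 were higher, or 2.88%, and 1 lower, or 0.719%, against 0.64% and 0.102% of all genes tested and 0.255% and 0.0613% of those of the same level and organ. At an unadjusted p under 0.05, 14 were higher and 15 lower, or 10.1% and 10.8%, against 5.25% and 4.57% of all genes tested, and the median log2 fold change was -0.02 against -0.00 for all genes. DESeq2 called 6 members higher and 6 lower, against 1.54% and 0.725% of all genes it tested. This comparison shares libraries with both of the others. By separation, the resupplied root libraries lay above the sufficient ones in 17 of 112 members, or 15.2%, against 8.11% of all genes and 6.15% of those of the same level and organ. They lay below in 10, or 8.93%, against 7.62% and 7.99%.

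Zm00004b024338 had the largest difference here, a log2 fold change of 3.01 ± 0.43 (SE, edgeR adjusted p = 0.0107) from the root levels given above, while its resupplied shoots were its lowest. Zm00004b019974 had 2.98, 3.53 and 3.78 CPM in sufficient, 7.92, 4.40 and 8.11 CPM in deficient and 7.48, 14.3 and 8.66 CPM in resupplied roots. Resupplied and deficient root libraries lay above the sufficient ones, and the log2 fold change of resupplied against sufficient roots was 1.57 ± 0.29 (edgeR adjusted p = 0.0358). In shoots it had 10.8, 9.92 and 15.2 CPM, then 12.0, 7.90 and 10.1 CPM, then 4.92, 4.63 and 4.88 CPM, lowest after resupply.

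Zm00004b033518 and Zm00004b007569 were the other members higher in resupplied than in sufficient roots. Zm00004b033518 differed by 0.61 ± 0.10 on the log2 scale (edgeR adjusted p = 0.0191). Zm00004b007569 had 19.96, 21.6 and 19.6 CPM in sufficient, 31.8, 30.6 and 32.2 CPM in deficient and 33.9, 31.9 and 34.6 CPM in resupplied roots. Deficient and resupplied roots overlapped and both lay above sufficient ones, with a log2 fold change of 0.72 ± 0.09 for resupplied against sufficient roots (edgeR adjusted p = 0.00415).

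The member lower in resupplied than in sufficient roots was Zm00004b012790, with 8.54, 6.16 and 10.3 CPM in sufficient, 12.1, 12.1 and 8.27 CPM in deficient and 3.14, 3.02 and 4.28 CPM in resupplied roots. Its resupplied libraries lay below the other 6, which overlapped. The log2 fold change was -1.25 ± 0.23 against sufficient roots (SE, edgeR adjusted p = 0.0335) and -1.61 ± 0.23 against deficient roots (edgeR adjusted p = 0.00351). The calls of this gene and of Zm00004b019974 against sufficient roots were fragile. Each was lost when any of several single root libraries was left out: sufficient library 1 or 3, deficient library 1 or resupplied library 2 for both, resupplied library 1 for Zm00004b012790, and sufficient library 2 or resupplied library 3 for Zm00004b019974. The edgeR adjusted p then reached 0.168 and 0.134. The count over all members fell from 5 to 2 without sufficient root library 1 or 3 or resupplied root library 2, and to 3 without sufficient root library 2 or resupplied root library 1. In these fits, in the order named, 0.2%, 0.415%, 0.23%, 0.241% and 0.639% of all genes were called higher, against 0.64% with all libraries. The shares called lower were 0.0259%, 0.0334%, 0.0259%, 0.0371% and 0.0855%, against 0.102%.

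The authors' deposited table of each comparison, made with DESeq2 from the same libraries, called more genes. For deficient against sufficient roots the authors' deposited table had 20 members higher and 0 lower of 127 with an adjusted p, against 4.14% and 2.61% of all genes with one. For resupplied against deficient roots the authors' deposited table had 3 members higher and 23 lower of 121, against 5.33% and 4.71%. For resupplied against sufficient roots the authors' deposited table had 8 higher and 6 lower of 122, against 1.97% and 0.832%. Every member called by edgeR in a root comparison was called in the same direction in the authors' deposited table. For resupplied against sufficient shoots, a contrast that chose the set, it had 148 of 154 members lower, against 8.94% of all genes. Against deficient shoots it had 145 of 155 lower, against 7.21%. Not lower in either were Zm00004b034545, Zm00004b010605 and Zm00004b023380, with log2 fold changes of 0.149, -0.053 and -0.025 against sufficient shoots. For Zm00004b033518 the authors' deposited table gives log2 fold changes of 3.68 under deficiency and -3.18 after resupply in roots, and for Zm00004b024338 it gives 1.59 under deficiency. The edgeR values were further from 0, at 3.94, -3.32 and 2.99, and the reason for the gap was not tested.

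Some members had neighbouring identifiers, which may or may not reflect neighbouring positions, since no coordinates came with the files. Of the 155 members 22 had another member within 10 identifiers, and 3 pairs of members had consecutive identifiers. The stretches described next were picked out after the values were seen. From Zm00004b010594 to Zm00004b010614 the files list 21 identifiers. Of these, 7 met the level and organ criteria without being removed for near absence from roots, and 5 were members. Those 5 had ratios of sufficient to resupplied shoots of 1.84 for Zm00004b010594, 1.87 for Zm00004b010595, 1.56 for Zm00004b010605, 1.89 for Zm00004b010613 and 1.97 for Zm00004b010614. The other two of the 7, Zm00004b010603 and Zm00004b010607, had ratios of 1.23 and 1.32. Zm00004b010600 in the same stretch was among the genes removed for near absence from roots. It had the opposite order, with 140 CPM in sufficient and 158 CPM in resupplied shoots as means plus 0.1. Not every abundant gene of the stretch was thus lower after resupply.

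Besides the 7 and Zm00004b010600, the identifiers of the stretch had little or no signal in shoots, and among them Zm00004b010606 had a mean of 42.2 CPM in roots. Zm00004b010614 had 237, 218 and 261 CPM in sufficient, 232, 195 and 230 CPM in deficient and 116, 137 and 110 CPM in resupplied shoots, and a mean of 1.90 CPM in roots. The resupplied shoot libraries were the lowest by a wide margin. Zm00004b010594 and Zm00004b010595 had deficient to sufficient ratios of 1.32 and 1.34, and Zm00004b010613 and Zm00004b010614 had 1.07 and 0.917. In the second stretch, Zm00004b029721 to Zm00004b029724, all 4 genes met the level and organ criteria and 3 were members, with ratios of 1.58, 1.83 and 1.75 for sufficient over resupplied shoots. The remaining one, Zm00004b029722, had 1.37. Whether genes of a stretch share sequence, so that reads could be split between them, was not tested.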

How the data were processed

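RNA was extracted with the Direct-zol kit and libraries were made by Novogene, per the labels' protocols. Per the submitters' processing notes, Trim Galore, HISAT2, StringTie and DESeq2 were used. Versions, build and gene models were not given in the sources used here. For each library the authors deposited estimated counts per gene (whole numbers, totals of 63058129 to 84318039) and 6 tables of their own comparisons, which per the file headers hold a base mean (a normalised signal), a log2 fold change, its standard error and Wald score, and a p-value and adjusted p-value. Between 29.3% and 33.0% of low counts were multiples of 4, so the totals may overstate the number of fragments.

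Groups and replicate numbers came from the sample titles. CPM was computed with edgeR 4.0.16 in R 4.3.3 after TMM scaling over all 18 libraries, without a filter. Each organ was fitted with edgeR's quasi-likelihood test over its 9 libraries (TMM, filterByExpr, group as the only term, Benjamini-Hochberg adjustment over all genes tested, threshold 0.05), and "called", "rose" and "fell" refer to it. A standard error is the absolute log2 fold change divided by the square root of its F statistic. The steps were tested on simulated data. DESeq2 1.42.0, other scalings, filters, a robust fit, a replicate block and omission of each library were alternatives.

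The members and the quantities described were chosen with earlier results of these data known. Named in shoots are the pairs of members with the largest ratios, the highest level and the extreme deficient to sufficient ratios; named in roots are up to 2 members per direction and comparison with the largest change; others are said to be picked out later. Gene names could not be assigned: 0 identifiers occur among 49888 genes of the RefSeq table (Zm-B73-REFERENCE-NAM-5.0), a different annotation.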

Additional observations from a re-analysis of the deposited data

Results flagged for a closer look

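For 12 named members and 3 comparisons each, 36 in all, every library of the first condition was set against every library of the other, separately in roots and shoots. In 4 cases the organs moved in opposite directions without any overlap of libraries. The difference between organs itself was not tested, and the shoot direction against resupplied plants was fixed by the choice of the genes. Zm00004b024338 and Zm00004b019974 were named in roots for being higher in resupplied than in sufficient plants, so their root direction was fixed as well. Of 112 members with at least 1 CPM in roots, 17, or 15.2%, had all resupplied root libraries above the sufficient ones. The share over all such genes was 8.11%. For resupplied against sufficient plants, Zm00004b024338 had a log2 fold change of 3.01 in roots and -1.57 in shoots, Zm00004b033518 had 0.61 and -0.74, and Zm00004b019974 had 1.57 and -1.31. For deficient against sufficient plants, Zm00004b039278 had -2.52 in roots and 0.56 in shoots. Its root levels were below 1 CPM in every library, and the root value did not pass (edgeR adjusted p = 0.232).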

How the results depend on the processing

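Of the recomputed counts of members and median log2 fold changes, 138 stayed near the reported value and 23 moved further. Near meant within 1.5 times for a count. For a median it meant a shift smaller than the spread of the members' median level between libraries of a condition. Direction played no part in this sorting, and medians close to 0 changed sign under some settings. DESeq2 called 20 members for deficient against sufficient roots, 20 for resupplied against deficient roots and 12 for resupplied against sufficient roots, where edgeR called 13, 10 and 5. Leaving out each library in turn gave 7 to 14, 6 to 16 and 2 to 5 members called, with root medians of 0.029 to 0.184, -0.204 to -0.116 and -0.0498 to 0.0571. Over these omissions 1.23% to 2.06% of all genes rose under deficiency and 0.857% to 1.96% fell after resupply. Between 0.2% and 0.639% were called higher in resupplied than in sufficient roots. In shoots the median of deficient against sufficient plants ran from -0.0657 to 0.0725 on leaving out libraries and was 0.158 under total-count scaling. The set held 132 to 192 genes on leaving out shoot libraries and 19 with a ratio of 2. The number of members lowest in resupplied roots was 10 to 19 on leaving out root libraries, which eases that criterion. The cause of these shifts was not tested.

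With the replicate number as a block, 12 members were higher and 1 lower for deficient against sufficient roots, against 1.54% and 0.448% of all genes. For resupplied against deficient roots 1 was higher and 9 lower, against 1.06% and 1.31%. For resupplied against sufficient roots 3 were higher and 0 lower, against 0.433% and 0.0602%. Whether the numbers pair the libraries is not stated. Deviations of same-numbered libraries correlated between -0.0896 and 0.0402 in roots and between -0.0981 and 0.124 in shoots. For differently numbered ones the ranges were -0.0575 to 0.0609 and -0.142 to 0.134. In shoots 2 of 9 same-numbered pairs and 1 of 18 others were over 0.1. With 3 libraries per condition these values cannot decide whether the libraries are paired. Under the block Zm00004b012790 and Zm00004b019974 no longer passed against sufficient roots (edgeR adjusted p = 0.0756 and 0.0898).

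Counted in the same root fit, sets chosen under the other settings of the rule gave 9 to 17 rises and 0 falls under deficiency. These sets held 66.5% to 98.7% of the 155 members, so they largely count the same genes again and are no separate support. The rises were 7.56% to 10.8% of the genes tested, whereas 2.08% of all genes rose and 0.801% fell. The set with a ratio of 2 gave 1 rise, or 5.56%, and 0 falls. These counts were tried after seeing the data. Total-count scaling kept 103 of the 155 members. Low counts limit what roots can show: 43 members lay under 1 CPM there.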
